A study of Mus musculus with 4 samples.

Results

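The genes described here encode the nuclear-coded subunits of the mitochondrial respiratory chain and ATP synthase, chosen by symbol: those starting with Nduf, Sdha to Sdhd, Uqcr, Cox4 to Cox8 or Atp5. Of 81 such genes in the platform annotation, 79 had a spot with a value on every array, among 9153 genes measured in all, and 108 spots (probes) stand behind them. They comprise 30 subunits of complex I, 4 of complex II, 7 of complex III, 15 of complex IV and 15 of complex V. The prefixes also took in 7 assembly factors, proteins that help to build a complex without staying in it, and the pseudogene Ndufs5-ps. The members without a complete set of values, Cox7b2 and Ndufa9, entered nothing.

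The mice were BALB/cJ, an inbred strain in wide use for allergic airway inflammation, and RNA was taken from their lungs. The animals of the test groups were sensitized to ovalbumin, the egg white protein used as an allergen, then challenged with it, and breathed either particle-free air or air containing UCP, an abbreviation that the labels do not spell out. Each lung RNA was hybridised on a dual-colour array against pooled RNA of lungs from 6 non-sensitized animals kept in the same air, giving 4 arrays, 2 per air. Array 1 of each air carried the challenged lung in Cy5 and array 2 carried it in Cy3. Sensitization and challenge cannot be told apart in this design, and neither can a difference between the airs and one between their separate control pools. The labels number the arrays as replicates and name individual organs, but do not say that the arrays of an air are separate animals. The p-values thus measure only the spread between these arrays. The pool counts as 1 control sample, so testing a ratio against 0 ignores how much control animals vary.

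Each value is a log2 ratio, taken as challenged lung over control pool. That sign is the likely one, since the challenged lung is the first channel of every array in the labels, but no source states it. A value of 1 is then a doubling against the control pool and a value of -1 a decrease of the same factor. Array medians over all probes lay between -0.074 and 0.021, and the most extreme values formed a plateau of 20 to 58 probes per array. Ratios give no level of expression, and in whole lung, fewer cells of a type and less RNA per cell cannot be told apart.

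The respiratory chain passes electrons from NADH through complex I, and from succinate through complex II, to complex III, cytochrome c and finally oxygen at complex IV. The protons moved on the way drive ATP synthesis in complex V. Most subunits are made in every cell, but complex IV swaps some of its small subunits for isoforms made chiefly in heart and skeletal muscle, of which Cox7a1 and Cox8b are also made in brown fat.

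As a set, the respiratory chain genes lay close to the control pools, and none of the 79 passed limma's test with Benjamini-Hochberg adjustment over 9153 genes in any of 4 comparisons. Their averaged log2 ratios had a median of -0.016 and ran from -1.67 for Cox8b to 0.93 for Ndufab1, with 37 genes above 0 and 42 below. Over all genes the median was -0.012. The test itself called few genes. The share of all genes called was 0.0983% for the challenge effect averaged over both airs, 0.0109% in particle-free air, 0.0219% in UCP air and 0% for UCP minus particle-free air. At an unadjusted p under 0.05 the averaged effect took 4 members above 0 (Atp5g3, Atp5l, Cox5a and Sdhd) where 8.06% of all genes were so called, and 4 below 0 (Atp5o, Cox6a2, Cox8b and Ndufs5-ps) where 7.56% were. In this comparison members called were no more frequent than genes at large.

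**Figure D1:**
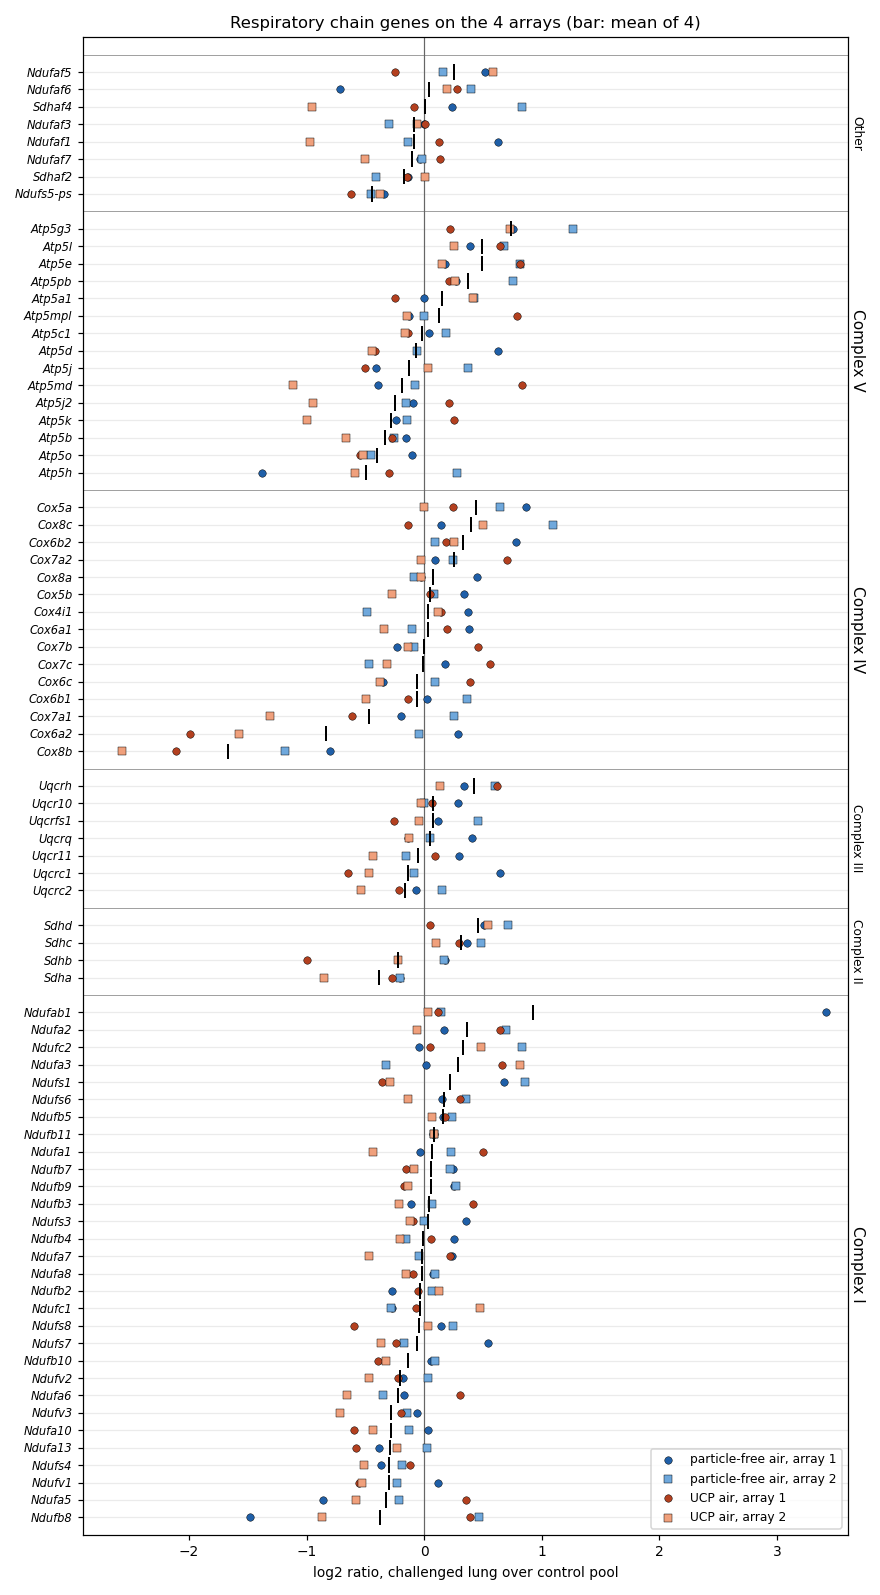
Log2 ratio of challenged lung over control pool (x axis) for each of the 79 genes (y axis, grouped by complex), with 1 point per array coloured by air and a bar at the mean of 4 arrays. Most genes sit near 0, while Cox8b, Cox6a2 and Cox7a1 reach the lowest UCP values and Ndufab1 has 1 array at 3.41.

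As a set the members lay lower on the arrays of UCP air than on those of particle-free air, by amounts that passed the test for no single gene. Across the 79 genes the array medians were 0.091 and 0.070 in particle-free air and 0.005 and -0.20 in UCP air, against 0.010, -0.052, -0.020 and 0.030 over all genes. The difference UCP minus particle-free air was below 0 for 60 members, 75.9%, where 48.8% of all genes were, with a median of -0.22 against 0.011. In 33 members, 41.8%, both UCP arrays lay below both particle-free arrays, as in 15.4% of all genes. In 2 members, Ndufa3 and Ndufc1, both lay above, where 16.9% of all genes did. The lowest adjusted p of any member for the difference was 0.705, and at an unadjusted p under 0.05 it took 3 members on the lower side (Cox6a2, Cox8b and Ndufs1; 2.15% of all genes) and 1 on the higher (Ndufa3; 1.79%). The count moved with UCP array 2. Without it 46 members, 58.2%, lay below 0 beside 51.2% of all genes, with a median of -0.13, and without UCP array 1 there were 65, 82.3%, beside 46.8%. Leaving out the heart and muscle isoforms gave 57 of 76 members, 75.0%.

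**Figure D2:**
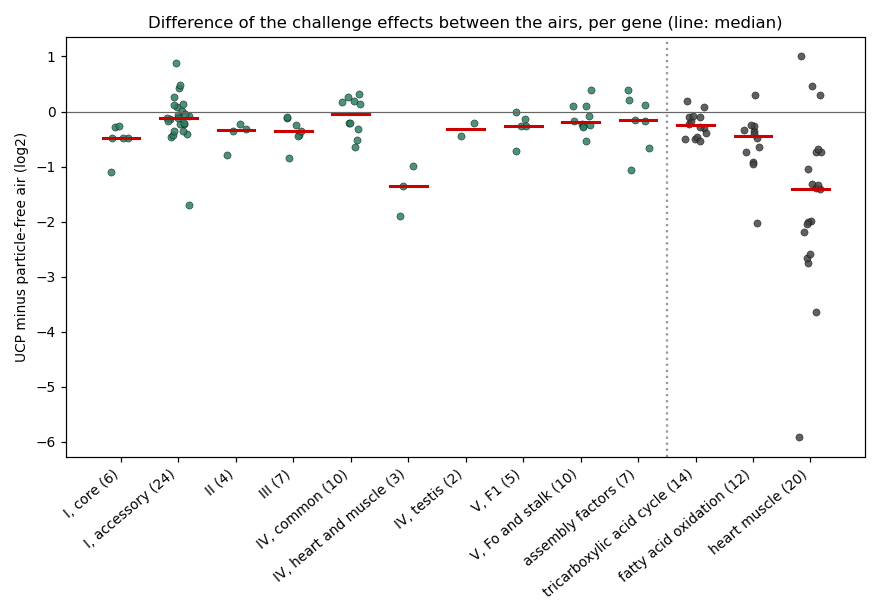
Difference of the log2 ratios, UCP minus particle-free air (y axis), for each gene (points) by group of subunits (x axis), with a line at each group's median. All 6 core subunits of complex I, all 4 of complex II and all 7 of complex III with a member prefix lie below 0, as do 48.8% of all genes. The heart and muscle isoforms of complex IV lie lowest of the subunit groups.

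The members with the lowest averages in UCP air were the 3 heart and muscle isoforms of complex IV. Cox8b, the heart and muscle form of a small subunit, VIII, read -0.80 and -1.19 in particle-free air and -2.11 and -2.57 in UCP air. It was below the control pool on every array, and both UCP arrays lay below both particle-free ones. Its average was -1.67 ± 0.82 (SD, n = 4), 3.18-fold lower, with an adjusted p of 0.0696 in limma's averaged test, and 0.0497 to 0.386 over the alternative settings. It was the sole member at least 1.5-fold lower on all 4 arrays, as were 1.02% of all genes, and no member was 1.5-fold higher on all 4, as were 1.16%. In UCP air it averaged -2.34 ± 0.33 (SD, n = 2), 5.07-fold lower (adjusted p = 0.128, limma), against -0.99 ± 0.27 (SD, n = 2) in particle-free air.

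Cox6a2, the heart and muscle form of subunit VIa, gave 0.28 and -0.048 in particle-free air and -1.99 and -1.57 in UCP air. Its particle-free arrays straddled the control pool, whereas its UCP arrays averaged -1.78 ± 0.29 (SD, n = 2), 3.44-fold lower (adjusted p = 0.159, limma). Its difference between airs, -1.90 ± 0.31 (SE), was the lowest of all members, with an adjusted p of 0.705. Cox7a1, the heart and muscle form of subunit VIIa, gave -0.19 and 0.25 in particle-free air and -0.62 and -1.31 in UCP air, a difference of -0.99 ± 0.38 (SE). Its UCP arrays lay below its particle-free arrays but spread widely, and its pair of probes disagreed in size. One read -1.23 and -1.89 in UCP air and the other -0.003 and -0.73. At least 1.5-fold lower on both UCP arrays were these 3 members, beside 3.82% of all genes. In limma's test of UCP air at an unadjusted p under 0.05, 6 members lay below 0 (Atp5o, Cox6a2, Cox7a1, Cox8b, Ndufa10 and Ndufv1), where 4.93% of all genes did.

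The common counterparts averaged near the control pools in each air. Cox6a1 read 0.38 and -0.11 in particle-free air and 0.19 and -0.34 in UCP air. Cox7a2 read 0.091 and 0.25 in particle-free air and 0.71 and -0.028 in UCP air, and Cox8a read 0.45 and -0.084 in particle-free air and -0.031 and -0.029 in UCP air. Their means in either air lay between -0.072 and 0.34. Subtracting common from muscle isoform on each array sets the forms of 1 subunit side by side within the same RNA. Cox6a2 minus Cox6a1 was -0.10 and 0.058 in particle-free air and -2.18 and -1.24 in UCP air. Cox7a1 minus Cox7a2 was -0.28 and 0.002 in particle-free air and -1.32 and -1.28 in UCP air. On UCP array 1 Cox7a2 lay further above the control pool (0.71) than Cox7a1 lay below it (-0.62). Cox8b minus Cox8a was -1.25 and -1.10 in particle-free air and -2.08 and -2.54 in UCP air. In each of these pairs both UCP arrays lay below both particle-free arrays, by -1.69, -1.16 and -1.14 in the mean. An exact permutation test over the splits of the arrays between airs gave p = 0.33 for each, which is the smallest it can give, and exact sign changes over 4 arrays gave p = 0.25, 0.25 and 0.13, the last being the smallest possible. With 5 pairs compared, none could have passed 0.05.

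**Figure D3:**
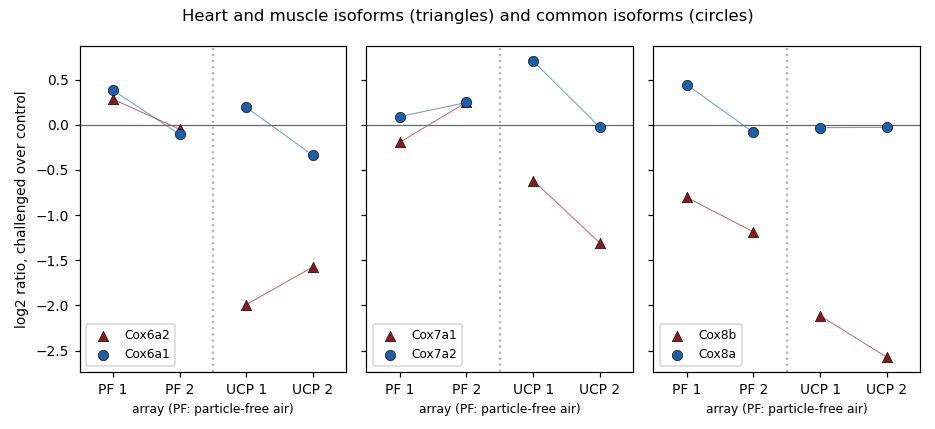
Log2 ratio of challenged lung over control pool (y axis) on each array for heart and muscle isoforms (triangles) and common isoforms (circles) of the same complex IV subunit, by air. The muscle isoform lies below the common isoform on both UCP arrays of each pair, and for Cox8b on all 4 arrays.

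The testis isoforms were not lower than their common partners throughout UCP air. Cox6b2 read 0.78 and 0.088 in particle-free air and 0.18 and 0.26 in UCP air, above the control pool throughout, and its common form Cox6b1 read 0.025 and 0.36 in particle-free air and -0.14 and -0.50 in UCP air. Cox8c gave 0.14 and 1.10 in particle-free air and -0.14 and 0.50 in UCP air. Cox6b2 minus Cox6b1 differed between airs by 0.30 (exact permutation p = 0.667) and Cox8c minus Cox8a by -0.23 (exact permutation p = 1), with arrays of the airs overlapping in both.

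Promoter sequence was compared because the muscle forms lay low together in UCP air while their common partners did not. Bases from 250 before the annotated start up to it are given 5′ to 3′ on the gene's strand, from the RefSeq promoter table for GRCm38.p6, with searched motifs in capitals.
Cox7a1, chr7:30183921-30184170, plus strand: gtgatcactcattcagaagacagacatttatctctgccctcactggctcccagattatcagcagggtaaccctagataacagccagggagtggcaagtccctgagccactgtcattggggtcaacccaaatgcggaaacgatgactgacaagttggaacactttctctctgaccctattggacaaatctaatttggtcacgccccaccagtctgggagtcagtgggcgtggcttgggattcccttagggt
Cox8b, chr7:140900447-140900696, minus strand: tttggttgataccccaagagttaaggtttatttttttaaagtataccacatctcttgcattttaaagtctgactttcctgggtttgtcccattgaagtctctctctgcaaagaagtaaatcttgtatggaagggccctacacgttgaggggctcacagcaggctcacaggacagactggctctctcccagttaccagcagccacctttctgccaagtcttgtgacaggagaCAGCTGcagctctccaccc
Cox6a1, chr5:115348959-115349208, minus strand: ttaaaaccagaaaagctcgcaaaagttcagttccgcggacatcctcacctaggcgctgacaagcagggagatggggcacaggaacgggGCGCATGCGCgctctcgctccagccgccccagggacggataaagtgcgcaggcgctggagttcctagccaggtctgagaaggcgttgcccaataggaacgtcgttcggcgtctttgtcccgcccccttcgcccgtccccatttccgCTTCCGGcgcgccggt
Cox7a2, chr9:79759854-79760103, minus strand: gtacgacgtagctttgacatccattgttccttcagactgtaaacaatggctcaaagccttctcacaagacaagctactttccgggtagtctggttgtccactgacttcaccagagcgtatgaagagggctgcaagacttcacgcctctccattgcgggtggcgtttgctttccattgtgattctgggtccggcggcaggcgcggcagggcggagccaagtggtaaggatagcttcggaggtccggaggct
Cox8a, chr19:7217617-7217866, minus strand: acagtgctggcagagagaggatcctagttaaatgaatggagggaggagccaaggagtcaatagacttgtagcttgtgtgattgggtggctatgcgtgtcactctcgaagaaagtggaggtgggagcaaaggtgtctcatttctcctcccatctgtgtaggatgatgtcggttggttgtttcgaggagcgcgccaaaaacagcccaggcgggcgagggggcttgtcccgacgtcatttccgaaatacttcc
The capitals in Cox8b mark an E-box, the site of muscle and other helix-loop-helix factors, at position -19 from the start. In Cox6a1 they mark an NRF1 match at positions -162 and -161, which is 1 site read on both strands, and an ETS match at -16. Cox8a has an ETS match too, which does not lie wholly within the bases shown and so is not in capitals.

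Across the members, 65 of 79 genes had promoter windows in that table, 70 windows of 300 bases that reach 50 bases past the start. The NRF1 motif (GCGCATGCG, searched like all others on both strands), bound by a regulator of respiratory genes, was in 10% of member windows and 1.75% of all 32851 windows. Its 7 genes were Atp5k, Atp5l, Cox6a1, Ndufa8, Ndufaf5, Uqcr11 and Uqcrc1. The ETS motif (CCGGAAG), which GABP binds, was in 25.7% against 8.86%, and the YY1 motif (AAGATGGC) in 12.9% against 2.75%. The ERR motif (AAGGTCA) was in 10% against 4.72%. MEF2, searched by its consensus, matched no member window and 3.19% of all, and the E-box (CAGCTG) matched 7.14% against 16.3%. Of the 3 heart and muscle isoforms this search covers 2, Cox7a1 and Cox8b. Neither of their windows held an NRF1, ETS, YY1, ERR or MEF2 match. That was not particular to them. Among common forms of complex IV, Cox7a2, Cox5a, Cox5b, Cox7b and Cox7c held none either, while Cox6a1, Cox6b1 and Cox8a did. Over the 250 bases before the start only, the median GC content of the Cox7a1 and Cox8b windows was 49.2%, against 57.6% over member windows and 52.4% over all. Matches describe these letters only and do not show binding.

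Complex I, which takes electrons from NADH, was represented by 6 conserved core subunits and 24 accessory ones. All 6 core subunits had both UCP arrays below both particle-free arrays, as in 15.4% of all genes, with a median difference of -0.48. Ndufs1, the largest core subunit and a carrier of iron-sulfur clusters, read 0.68 and 0.86 in particle-free air and -0.36 and -0.30 in UCP air. It was above the control pool in particle-free air and below it in UCP air without overlap, a difference of -1.09 ± 0.26 (SE) that did not pass (adjusted p = 0.979, limma). Ndufv1, which binds NADH, read 0.12 and -0.23 in particle-free air and -0.55 and -0.53 in UCP air. Ndufs3, Ndufs7, Ndufs8 and Ndufv2 differed between airs by -0.28, -0.48, -0.47 and -0.27. Of the 2 Ndufs7 probes 1 overlapped, at 0.49 and -0.25 in particle-free air and -0.15 and -0.43 in UCP air. The gap in Ndufv2 was narrow, with -0.18 in particle-free air against -0.22 in UCP air. The medians over the 6 core subunits were -0.30 and -0.33 on the UCP arrays, against 0.25 and 0.016 on the particle-free arrays.

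Accessory subunits of complex I, which surround the core and help to assemble it, were more mixed. They were 16 lower and 8 higher in UCP air, where 48.8% of all genes lay lower, with a median difference of -0.12. Ndufa3 stood at the upper end with 0.015 and -0.32 in particle-free air and 0.66 and 0.81 in UCP air, a difference of 0.89 ± 0.28 (SE) with no overlap between airs. That rested on 1 of its probes, which differed by 1.77 between airs while the other differed by 0.006. Ndufa3 was the sole member at least 1.5-fold higher on both UCP arrays (2.93% of all genes) and the sole one above 0 at an unadjusted p under 0.05 in UCP air (4.45%). Ndufa2 had the next highest average of complex I after Ndufab1, at 0.36 ± 0.37 (SD, n = 4), with arrays of 0.16 and 0.70 in particle-free air and 0.64 and -0.058 in UCP air. Ndufa5, one of the lowest, read -0.86 and -0.22 in particle-free air and 0.35 and -0.58 in UCP air. Neither kept its airs apart.

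Single arrays set the other extremes of complex I. Ndufab1, the mitochondrial acyl carrier protein, read 3.41 and 0.14 in particle-free air and 0.12 and 0.029 in UCP air, so that its average of 0.93 ± 1.66 (SD, n = 4) came from 1 array. Ndufb8 read -1.48 and 0.47 in particle-free air and 0.39 and -0.87 in UCP air, and its probes disagreed. One averaged -0.89, with a value of -3.27 on particle-free array 1, and the other averaged 0.14. Of 22 members with several probes it was the only one whose probes differed by more than 1 in the mean of 4 arrays, while on single arrays those of other members, among them Atp5h, Cox7a1 and Ndufa3, also did.

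Complex II, succinate dehydrogenase, belongs to both the respiratory chain and the tricarboxylic acid cycle. All 4 of its subunits lay lower in UCP than in particle-free air, where 48.8% of all genes did, with a median difference of -0.33. In 3 of them both UCP arrays lay below both particle-free arrays, as in 15.4% of all genes. Its catalytic pair lay lower than its membrane anchors. Sdha, the flavoprotein that oxidises succinate, read -0.21 and -0.21 in particle-free air and -0.27 and -0.85 in UCP air, below 0 throughout. Sdhb, the iron-sulfur subunit, read 0.18 and 0.17 in particle-free air and -1.0 and -0.23 in UCP air, a difference of -0.78 ± 0.36 (SE) (adjusted p = 0.979, limma). The anchors were above the control pool on every array, Sdhc at 0.37 and 0.48 in particle-free air and 0.30 and 0.10 in UCP air and Sdhd at 0.51 and 0.71 in particle-free air and 0.049 and 0.54 in UCP air. Sdhd averaged 0.45 ± 0.28 (SD, n = 4), with an adjusted p of 0.296 in limma's averaged test.

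Complex III passes electrons from ubiquinol to cytochrome c. All 7 subunits with a member prefix lay lower in UCP air, where 48.8% of all genes did, with a median difference of -0.36. Free of overlap were 4 (Uqcrc1, Uqcrc2, Uqcrfs1 and Uqcrq), beside 15.4% of all genes. Cyc1, a subunit without a member prefix, read 0.007 and 0.13 in particle-free air and -0.73 and -0.11 in UCP air, and is counted below with the electron carriers. Uqcrc1, a core protein facing the matrix, read 0.64 and -0.084 in particle-free air and -0.65 and -0.47 in UCP air, a difference of -0.84 ± 0.36 (SE). Uqcrc2, the other core protein, read -0.067 and 0.15 in particle-free air and -0.22 and -0.54 in UCP air. Uqcrfs1, the Rieske iron-sulfur protein, differed by -0.44. Uqcrh, the hinge protein that docks cytochrome c, was above 0 on all arrays, at 0.34 and 0.60 in particle-free air and 0.62 and 0.14 in UCP air, with airs overlapping. Uqcr10 read 0.28 and -0.002 in particle-free air and 0.063 and -0.030 in UCP air, near the control pool. None passed the test (adjusted p of 0.979 or more for each difference).

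The 10 common subunits of complex IV, which reduces oxygen, split evenly between the airs, 5 lower and 5 higher in UCP, with a median difference of -0.037. Cox5a, a nuclear subunit near the catalytic core, was the highest of the complex and read 0.86 and 0.65 in particle-free air and 0.24 and -0.004 in UCP air. Its particle-free arrays were both above both UCP arrays, a difference of -0.64 ± 0.28 (SE). Cox5b and Cox6b1 had the same order of airs, though in 1 of the 2 Cox6b1 probes the airs overlapped. Cox4i1, Cox6c, Cox7a2, Cox7b and Cox7c leaned the other way, by 0.14 to 0.32, with arrays overlapping.

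In particle-free air by itself, 3 members were at least 1.5-fold higher on both arrays (Atp5g3, Cox5a and Ndufs1), beside 3.73% of all genes, and 1 was lower (Cox8b), beside 3.58%. At an unadjusted p under 0.05 limma's test of that air took Atp5g3, Cox5a, Ndufs1 and Sdhd above 0 (5.58% of all genes) and Cox8b below it (5.70%). The lowest adjusted p was 0.357.

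Complex V, the ATP synthase, joins a catalytic F1 head to a membrane part, Fo, and a stalk. All 5 F1 subunits lay lower in UCP air, where 48.8% of all genes did, with a median difference of -0.26. In Atp5b, Atp5c1 and Atp5d both UCP arrays lay below both particle-free arrays, as in 15.4% of all genes. Atp5b, the catalytic beta subunit, read -0.16 and -0.26 in particle-free air and -0.27 and -0.66 in UCP air. Atp5d, the delta subunit, read 0.63 and -0.059 in particle-free air and -0.42 and -0.44 in UCP air, the widest difference of the head at -0.71 ± 0.34 (SE).

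Of the 10 Fo and stalk subunits 7 lay lower and 3 higher in UCP air, where 48.8% of all genes lay lower. Atp5g3, which encodes a copy of the proton-carrying ring subunit c, was the highest of the complex, at 0.76 and 1.27 in particle-free air and 0.22 and 0.73 in UCP air. It was above the control pool on all arrays and averaged 0.74 ± 0.43 (SD, n = 4), 1.67-fold, with an adjusted p of 0.209 in limma's averaged test. Atp5l, subunit g, read 0.39 and 0.68 in particle-free air and 0.64 and 0.26 in UCP air, also above 0 throughout, averaging 0.49 ± 0.21 (SD, n = 4) with an adjusted p of 0.263. Atp5o, the stalk protein that confers oligomycin sensitivity, was below 0 on all arrays, at -0.10 and -0.45 in particle-free air and -0.54 and -0.52 in UCP air, averaging -0.41 ± 0.21 (SD, n = 4) with an adjusted p of 0.297. Atp5h, subunit d of the stalk, had the lowest average, but 1 of its 3 probes read -4.20 on particle-free array 1 and between -0.045 and 1.15 on the others.

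Several small membrane subunits of Fo differed more between the arrays of UCP air than between airs. Atp5md read 0.83 and -1.12 there, Atp5k 0.26 and -1.0 and Atp5j2 0.21 and -0.94. Each was above the control pool with the challenged lung in Cy5 and below it in Cy3. The UCP arrays differed by more than 1 in these genes and in Ndufaf1 and Ndufb8, 5 members beside 10.5% of all genes. The particle-free arrays did so in 4 members (Atp5h, Ndufab1, Ndufaf6 and Ndufb8) beside 17.8%. UCP array 1 exceeded array 2 in 50 of 79 members, 63.3%, where it did in 45.1% of all genes. Array number and dye orientation coincide here and cannot be told apart.

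**Figure D4:**
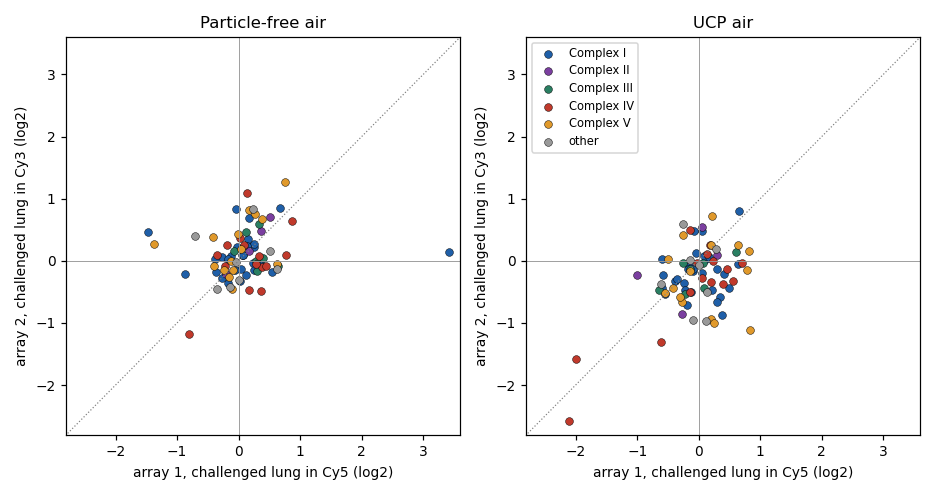
Log2 ratio on array 2 (y axis, challenged lung in Cy3) against array 1 (x axis, challenged lung in Cy5) for each of the 79 genes, with particle-free and UCP air in separate panels and a dotted line of equality. Cox8b, Cox6a2 and Cox7a1 are low on both UCP arrays, while Ndufab1 and Ndufb8 lie far from equality.

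Genes that help to build the complexes lay on both sides of 0 between the airs. The 7 assembly factors with a member prefix had a median difference of -0.15, 4 lower and 3 higher in UCP air, where 48.8% of all genes lay lower. Of a wider list of 16 assembly factors measured 6 lay lower and 10 higher, with a median of 0.12. In 6 of the 16 both UCP arrays lay above both particle-free arrays, as in 16.9% of all genes. In 2 both lay below, as in 15.4%. No assembly factor passed in either direction. The widest difference of the 16 was 1.71 in Taco1, which read -2.72 and -0.84 in particle-free air and 0.48 and -0.60 in UCP air. Uqcc2, an assembly factor of complex III, read -0.24 and -0.19 in particle-free air and 0.68 and 0.61 in UCP air, opposite in order to the complex III subunits. Of 10 measured regulators of mitochondrial genes 4 lay lower, beside 48.8% of all genes, and 6 higher (median 0.003), and none passed. Their widest difference was -0.94 in Ppargc1b, which read 0.71 and -0.36 in particle-free air and -1.04 and -0.50 in UCP air. Gabpa, the DNA-binding subunit of GABP, read -0.85 and -1.14 in particle-free air and -0.72 and -0.72 in UCP air, below the control pool on every array (adjusted p = 0.128, limma, averaged).

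Neighbouring pathways of the mitochondrion were read from lists in the same way, and in none of them did a gene pass in any comparison. Beside the counts that follow, 48.8% of all genes lay lower in UCP air. Of 14 measured tricarboxylic acid cycle genes 12 lay lower in UCP air (median difference -0.25), with Mdh2, malate dehydrogenase, at 0.43 and 0.21 in particle-free air and -0.32 and -0.11 in UCP air. Their averaged ratios were below 0 for 12, with a median of -0.29, where the respiratory chain genes had -0.016. Of 12 measured fatty acid oxidation genes 11 lay lower (median -0.44), led by Acadvl, the very long chain acyl-CoA dehydrogenase, at -0.16 and 0.19 in particle-free air and -1.51 and -2.52 in UCP air. Of 9 electron and nucleotide carriers 6 lay lower (median -0.20), among them Ckmt2, the mitochondrial creatine kinase of heart and skeletal muscle, at -0.14 and 0.44 in particle-free air and -1.47 and -0.85 in UCP air. The mitochondrial ribosome had 42 of 61 lower (median -0.15), protein import 7 of 13 (median -0.084) and glycolysis, which runs outside the mitochondrion, 7 of 10 (median -0.46).

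Markers of other tissues were read on the same arrays. Some lists share a gene. Ckmt2 stands with the heart muscle markers and the carriers, and Fabp3 with heart muscle and brown fat. Ppargc1a stands with brown fat and the regulators of mitochondrial genes. Of 20 measured heart muscle markers 17 had both UCP arrays below both particle-free arrays, as in 15.4% of all genes. The list medians were -0.069 and -0.022 in particle-free air and -1.54 and -1.51 in UCP air. The other 3, Ckm, Actn2 and Actc1, lay higher in UCP air, with arrays of the airs overlapping in Actn2 and Actc1. Ckm, the muscle creatine kinase, read -0.58 and -0.81 in particle-free air and 0.30 and 0.31 in UCP air, without overlap. Nppa, the atrial hormone precursor, read 0.38 and -0.17 in particle-free air and -5.72 and -5.91 in UCP air and passed in UCP air (adjusted p = 0.0282, limma), 1 of 20. That call was lost without any 1 of the 4 arrays (0.058 to 0.203), with dye orientation as a block (0.14), with scaling (0.0712) and by probe, where no gene was called. Nppa also passed limma's averaged test (adjusted p = 0.0491), again 1 of 20. In limma's averaged test that call was lost on centring (0.0501), with scaling (0.0584) and with dye orientation as a block (0.179). Myl2, the ventricular myosin light chain, read 2.03 and 1.5 in particle-free air and -1.90 and -1.86 in UCP air, and Tnnt2, cardiac troponin T, 0.039 and -0.060 in particle-free air and -2.58 and -2.95 in UCP air. Nppa, Myl2 and Tnnt2 were named for the widest differences between airs on the list. Their sharing the order of Cox6a2 thus adds nothing to the count of 17. Of 11 skeletal muscle markers 10 averaged below 0, with list medians of -0.99 and -1.67 in particle-free air and -1.04 and -1.10 in UCP air, and none passed.

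White fat markers averaged below the control pools, while brown fat markers were mixed. All 8 measured white fat markers averaged below 0, with medians of -0.86 and -0.92 in particle-free air and -1.14 and -1.28 in UCP air, and 2, Gpd1 and Car3, passed limma's averaged test. Gpd1, glycerol-3-phosphate dehydrogenase, read -1.83 and -1.59 in particle-free air and -3.43 and -3.07 in UCP air (adjusted p = 0.0491). Both calls were lost without any 1 of the 4 arrays, with dye orientation as a block (adjusted p = 0.179 for each), and on centring, where they lay at 0.0514 and 0.0524. Of 8 brown fat markers 6 averaged below 0 and 2 above, 6 lay lower and 2 higher in UCP air, and none passed, with medians of -0.15 and -0.13 in particle-free air and -0.64 and -0.33 in UCP air. Ucp1, the brown fat uncoupling protein, read -0.60 and -0.62 in particle-free air and -3.33 and -2.27 in UCP air. Slc27a2, a fatty acid transporter that liver also makes, read 0.83 and 2.74 in particle-free air and -1.38 and 0.86 in UCP air, and Pank1, a kinase of coenzyme A synthesis, -2.89 and -0.17 in particle-free air and -0.24 and 1.81 in UCP air. The markers with the widest difference thus did not share a direction. The part of heart, skeletal muscle or fat tissue in the values of Cox8b, Cox6a2, Cox7a1 or the common subunits was not tested.

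Lung and inflammatory cell markers gave other orders. Of 11 macrophage markers 9 averaged above 0, with array medians from 0.90 to 1.71 and a median difference between airs of -0.001. Of 6 alveolar type 2 markers 4 averaged below 0 (array medians from -0.33 to -0.003), as did 4 of 6 club and ciliated cell markers (from -0.51 to -0.41). Of 13 transcripts made by the liver 12 averaged above 0, with array medians of 3.41 and 2.86 in particle-free air and 0.53 and 0.44 in UCP air. None of these 4 lists had a gene that passed. Their part in the members' values was not tested.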

How the data were processed

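Lung RNA was measured on 4 dual-colour arrays. Per the labels' protocols, 20 µg of total RNA from individual organs was reverse transcribed, labelled indirectly with Cy3 or Cy5 and hybridised with a pool from 6 control animals. The deposited values are log2 ratios made by the authors. For the scanner, background correction and normalization, details were not given in the sources used here, and with no brightness values dim spots could not be filtered. The extreme values form a plateau, above 0 where the challenged lung was in Cy5 and below 0 where it was in Cy3. All 4 arrays run the same way if that plateau is tied to a dye, which was not tested.

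Of 20205 probes, 18160 had a value on all arrays and 12532 of these 1 gene symbol. Probes were averaged by gene with no further scaling. limma 3.58.1 (R 4.3.3) fitted 1 coefficient per air (2 residual and 2.37 prior degrees of freedom), two-sided, with Benjamini-Hochberg adjustment over 9153 genes at 0.05, and was tested on simulated data. The number of arrays limits the precision. Unadjusted calls use p under 0.05 and fold counts 1.5-fold.

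Members and gene lists were chosen with earlier results of these data known. Genes were named by rule: tissue isoforms and their partners, the 2 highest and 2 lowest averages of each complex, members past 1.5-fold on all arrays or both arrays of an air, members with disagreeing probes, and up to 3 genes per list with the widest effect. Others (core, F1 and Fo subunits such as Ndufv1, Atp5b, Atp5d, Atp5md, Atp5k and Atp5j2, and further genes listed by name beside a count) were chosen after their values were seen. Alternatives were centring, scaling, the replicate number as a block, single probes, missing values kept, capped values left out and each array left out.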

Additional observations from a re-analysis of the deposited data

Results flagged for a closer look

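In 3 of the 28 members named by rule, both arrays of one air lay above the control pool and both of the other below it: Ndufs1, with UCP minus particle-free air at -1.09 on the log2 scale, Sdhb at -0.78 and Cox6b1 at -0.51. All 3 were above 0 in particle-free air. limma's test of the difference did not pass for any of them (adjusted p = 0.979 for each). In Cox6b1 the opposite sides rested on 1 of its 2 probes. The other probe read -0.053 and -0.071 in particle-free air and -0.009 and -0.70 in UCP air, with airs overlapping. Over all members 11 of 79 (13.9%) had airs on opposite sides in either order, beside 705 of 9153 genes (7.7%).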

How the results depend on the processing

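No member passed limma's test under any setting, except Cox8b in the averaged effect with capped values left out (adjusted p = 0.0497). Genes called in the averaged effect numbered 9, and 3 with array medians centred, 0 with centring and scaling, 1 by probe, 42 with capped values left out, 0 with the airs averaged first, and 3 to 19 without 1 array each. In particle-free air 1 gene was called, and 0 scaled, 0 by probe, 4 with missing values kept and 0 to 4 without 1 array each. In UCP air 2 were called, and 0 scaled, 0 by probe, 16 with capped values left out and 0 to 26 without 1 array each. For the difference between airs 0 were called (197 lower and 164 higher at an unadjusted p under 0.05), and 3 to 20 without 1 array each. With the replicate block, which here is dye orientation, 0 genes were called in each comparison. Same-numbered arrays did not deviate together (r = 0.055 over 9153 genes), so the numbers were not taken as pairs. The members' median in particle-free air was 0.095, and 0.12 centred and 0.070 to 0.095 without 1 array each. By probe, 2 members rather than 1 were 1.5-fold lower on both particle-free arrays, and 0 to 1 were 1.5-fold higher on all arrays without 1 array each. The share of members below 0 in UCP minus particle-free air, a count chosen after the values were seen, lay between 58.2% and 82.3% over all settings, above that of all genes in each. Causes were not tested. Signal over background was not analysed here, so its limits are unknown.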
